A study of Homo sapiens with 6 samples.

Results

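The 38 genes described here encode the BCL2 family, the death receptors and their adaptors, several caspases, the inhibitor of apoptosis proteins (IAPs) and the mitochondrial proteins released during death. They were taken from the deposited gene table by symbol, and all 38 were found among its 58825 genes. The RNA was that of MDA-MB-231, a long-established line of mesenchymal character from a human breast cancer without hormone receptors. One group was kept in DMSO, the vehicle, and the other in disulfiram with copper (DSF/Cu, 0.2 µM), each for 24 h, with 3 libraries a group and the cells of 3 wells pooled in each library. Disulfiram, a drug against alcohol dependence, has a main metabolite that binds copper. Neither disulfiram alone nor copper alone was among the samples, so the agents cannot be told apart, and no label says that the repeats came from separate cultures, so p-values measure the spread between these libraries, which may be technical. The title of the series asks about ferroptosis, an iron-dependent form of cell death. The genes below belong to other routes of cell death.

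Apoptosis runs along a mitochondrial and a receptor route. In the first, BH3-only proteins bind pro-survival BCL2 proteins or act on the effectors BAX, BAK1 and BOK, which open the outer mitochondrial membrane. Cytochrome c then joins APAF1 and activates CASP9, while SMAC (DIABLO) and HTRA2 block IAPs. In the second, FAS and the TRAIL receptors recruit FADD and CASP8, and CFLAR (FLIP) competes with CASP8 for the same complex.

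For 3 members, picked by the size of their change, sequence before a RefSeq transcript start is shown. BBC3 and CFLAR had the largest called rises of the BH3-only and of the caspase group. BOK had the largest called fall of the effectors. The 3 were chosen after their values were seen. The deposited table places BBC3 (ENSG00000105327) at chr19:47220822-47232766, CFLAR (ENSG00000003402) at chr2:201116154-201176687 and BOK (ENSG00000176720) at chr2:241551424-241574131. The sequences come from RefSeq promoter windows (GRCh38.p14), which reach 250 bases before a transcript start. Each stops before the first base that GENCODE 29 places in an exon of the gene. Capitals mark matches to any of the motifs listed after them.
BBC3 (chr19:47232767-47232917, minus strand): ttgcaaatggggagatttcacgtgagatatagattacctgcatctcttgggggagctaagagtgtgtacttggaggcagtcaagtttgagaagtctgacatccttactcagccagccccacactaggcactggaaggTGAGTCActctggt
CFLAR (chr2:201132531-201132778, plus strand): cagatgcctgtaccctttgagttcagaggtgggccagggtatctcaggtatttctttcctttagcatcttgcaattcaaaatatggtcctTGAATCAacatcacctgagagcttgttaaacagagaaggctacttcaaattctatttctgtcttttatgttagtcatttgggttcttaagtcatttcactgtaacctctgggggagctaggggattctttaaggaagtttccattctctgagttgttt
BOK (chr2:241558495-241558720, plus strand): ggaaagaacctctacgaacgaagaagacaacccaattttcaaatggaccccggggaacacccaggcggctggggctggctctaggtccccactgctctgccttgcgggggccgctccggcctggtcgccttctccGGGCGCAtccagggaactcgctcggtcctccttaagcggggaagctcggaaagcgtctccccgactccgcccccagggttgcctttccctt
The BBC3 match is an AP-1 site, TGANTCA, from -113 to -107 relative to the RefSeq start, and the CFLAR match is the same motif from -160 to -154. The motif does not go with 1 direction: it also lies in windows of FAS and FADD, which were called lower, and of CASP8, which was not called. RefSeq gives CFLAR 4 windows, and the one printed, an internal start, was picked because it alone holds TGANTCA. The first window, mostly exonic and so not printed, holds TTCNNGAA, TGACNNNGC and TGCGCNC, and the others hold none of the motifs. The BOK match is a metal response element core, TGCGCNC, read on the opposite strand from -115 to -109. The BOK window, like that of CFLAR, lies inside the coordinates that the deposited table gives the gene.

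Windows of 300 bases were found for 31 of the 38 members, 56 windows in all. The motifs were searched on both strands, and their shares are set beside those of all 35116 windows. TGANTCA lay in 10.7% of member windows and 7.71% of all windows. TGCGCNC lay in 32.1% and 19.97%, and the other metal response element core, TGCACNC, in 14.3% and 12.1%. The antioxidant response element core, TGACNNNGC, lay in 19.6% and 13.3%. The heat shock element core, TTCNNGAA, was held by 7.14% and 7.74%, and the ATF4/CEBP composite site, TGATGNAA, by 3.57% and 3.62%. Windows of one gene can overlap, and a match of this length is a description of letters only.

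Total counts were 62165212 to 70883177 in the DMSO libraries and 55563223 to 61633168 in the DSF/Cu libraries. Markers of the mesenchymal state (VIM, CD44, AXL, MSN and CAV1) summed to 1086 to 1135 FPKM in DMSO and 884.5 to 960.5 FPKM in DSF/Cu. They did not move together: VIM and AXL were called lower, MSN was called higher, and CD44 and CAV1 were not called. All marker sums here also hold the FPKM shift given below for the effectors. The luminal or epithelial markers ESR1, PGR, CDH1, EPCAM and KRT8 summed to 22.2 to 26.8 FPKM and 11.4 to 11.99 FPKM, most of it KRT8. The 9 markers of blood, endothelial, fibroblast and fat cells summed to 0.122 to 0.318 FPKM in DMSO and 0.660 to 1.18 FPKM in DSF/Cu. Of these, CD14 was called raised, and CD3E, DCN, LUM and ADIPOQ had 0 counts in every library. The part of these markers in the results below was not tested.

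Of the 38 members, 37 passed the filter on low counts, and 18 of them (48.6%) were called by edgeR's quasi-likelihood test at a Benjamini-Hochberg adjusted p under 0.05, against 35.2% of the 18229 genes tested. By this test most calls were falls. Members called lower numbered 14 (37.8%) against 16.8% of all tested genes, and those called higher numbered 4 (10.8%) against 18.5%. That lean depends on the tool: DESeq2 called 12 members higher (32.4%) against 23.9% of all genes and 14 lower (37.8%) against 21.7%, so the share of rises went from below that of all genes to above it. The median log2 fold change over the 37 was 0.04, beside 0.00 over all tested genes. Of the 18 called members, 9 changed by at least 1.5-fold. The libraries of the groups did not overlap for 24 of the 37 tested members, against 51.2% of all tested genes. Of the 37, 15 were lower in DSF/Cu without overlap, against 25.2% of all tested genes. The members were chosen with earlier results of these data known, so their shares describe the list only. Fewer cells of a type and less RNA per cell cannot be told apart in these bulk libraries. Leaving out a library lowered the count of falls to 8 without DMSO 1, DSF/Cu 1 or DSF/Cu 3 and to 9 without DMSO 3, or 21.6% and 24.3% of the members. The share of all genes called lower also fell in these fits, from 16.8% to between 12.3% and 13.5%.

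**Figure D1:**
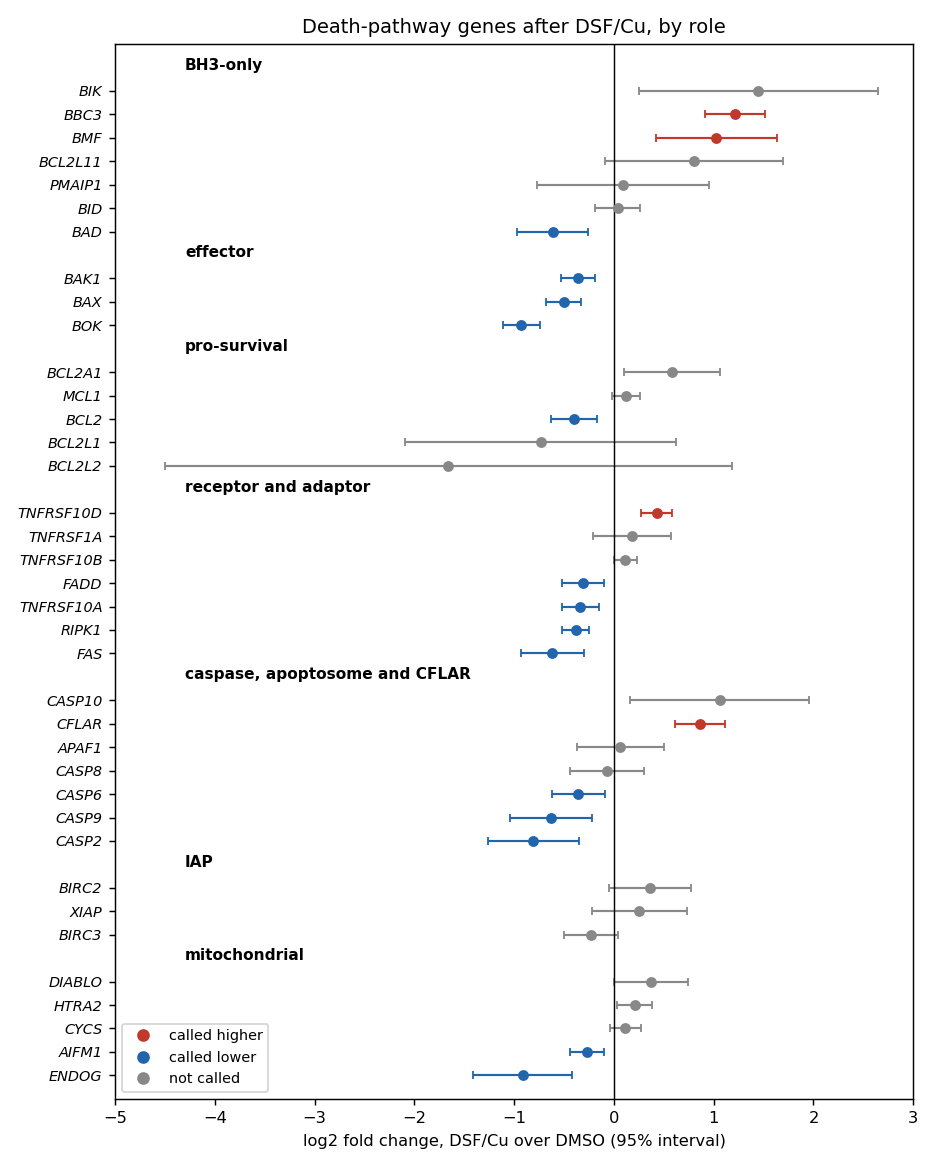
Each point is the log2 fold change of 1 member, DSF/Cu over DMSO, from edgeR, and the bar is its 95% interval, not adjusted for the number of genes; members are grouped by role and coloured by call. All 3 effectors lie to the left of 0, BBC3, BMF, TNFRSF10D and CFLAR are the called rises, and BCL2L2 has the widest bar.

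Among the BH3-only genes, which sense stress and start the mitochondrial route, 2 of 7 tested rose (28.6%) and 1 fell (14.3%). Of all tested genes 18.5% rose and 16.8% fell. BBC3 (PUMA), which binds all pro-survival members, had 3.83, 3.67 and 4.01 CPM in the DMSO libraries. It had 9.57, 8.90 and 8.30 CPM in the DSF/Cu libraries. The groups did not overlap, and the rise was 2.33-fold (log2 1.22 ± 0.13 SE, edgeR quasi-likelihood adjusted p = 0.000745).

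BMF, a BH3-only protein linked to the cytoskeleton, had 0.866, 1.27 and 0.938 CPM in DMSO. In DSF/Cu it had 1.72, 2.20 and 2.35 CPM, from 62 to 127 counts a library. Every DSF/Cu library was above every DMSO library, and the rise was 2.04-fold (log2 1.03 ± 0.25 SE, edgeR adjusted p = 0.0206). Its call was lost without DMSO 1, DMSO 3, DSF/Cu 2 or DSF/Cu 3, with adjusted p up to 0.0680.

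BAD, which binds BCL2 and BCL2L1 and is held in check by phosphorylation, went the other way. It had 48.5, 35.8 and 49.3 CPM in DMSO, and 26.1, 28.5 and 32.5 CPM in DSF/Cu. DMSO 2 was the low library of its group but still above all DSF/Cu libraries. The fall was 1.53-fold (log2 -0.61 ± 0.15 SE, edgeR adjusted p = 0.0192). It was not called without DMSO 1, DMSO 3, DSF/Cu 1 or DSF/Cu 2, with adjusted p up to 0.0661. GPR137 overlaps BAD on the opposite strand and had 712 to 1274 counts, with a log2 fold change of -0.26. Since the use of strand in counting is not given, the reads of such neighbours cannot be told apart.

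PMAIP1 (NOXA), which binds MCL1, was not called, and its libraries are given because their spread was seen to be wide. The DMSO libraries had 74.4, 76.8 and 83.3 CPM and the DSF/Cu libraries 70.4, 45.6 and 134 CPM. DSF/Cu libraries lay on both sides of the DMSO range, a 2.94-fold range within the treated group against 1.12-fold in DMSO. The log2 fold change was 0.09 ± 0.36 SE (edgeR adjusted p = 0.871), 0.39 without DSF/Cu 2 and -0.43 without DSF/Cu 3.

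BCL2L11 (BIM), an activator of BAX and BAK1, had 5.19 ± 1.40 CPM in DMSO and 9.07 ± 4.50 CPM in DSF/Cu (SD, n = 3). The highest of its libraries was DSF/Cu 3, at 14.2 CPM, and edgeR gave an adjusted p of 0.145. BCL2L11 also lies across MIR4435-2HG on the opposite strand, which had 3938 to 6375 counts and was called higher. BIK had 0.256 ± 0.13 CPM and 0.703 ± 0.10 CPM (SD, n = 3) without overlap, from 8 to 42 counts a library, with an edgeR adjusted p of 0.0655. BID, which CASP8 cuts to link the receptor route to mitochondria, had 43.3 ± 4.65 CPM and 44.4 ± 2.33 CPM (SD, n = 3, edgeR adjusted p = 0.807). HRK did not pass the filter: it had 0 counts in all libraries but DSF/Cu 3, which had 4. By FPKM, PMAIP1 made up 47.8 ± 2.13% of the summed BH3-only level in DMSO and 51.2 ± 12.1% in DSF/Cu (SD, n = 3). BAD made up 35.5 ± 4.52% and 25.6 ± 5.95%, and BBC3 1.64 ± 0.02% and 4.32 ± 1.39%, so the gene with the clearest rise was a small part of the sum in both groups.

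The effectors, the proteins that form the pores, fell together: all 3 were called lower, against 16.8% of all tested genes. None of their groups overlapped, against 25.2% of all tested genes lower without overlap. BOK, an effector that can act without the others, had 68.3, 62.0 and 64.1 CPM in DMSO. In DSF/Cu it had 32.4, 32.9 and 37.0 CPM. The 1.90-fold fall (log2 -0.93 ± 0.08 SE, edgeR adjusted p = 0.000395) was the largest of the group.

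BAX, which moves from the cytosol to mitochondria, had 83.6, 88.1 and 85.4 CPM in DMSO and 60.3, 65.3 and 55.7 CPM in DSF/Cu. The fall was 1.42-fold (log2 -0.50 ± 0.07 SE, edgeR adjusted p = 0.00280). BAK1, which sits in the outer membrane from the start, had 68.8, 71.03 and 76.4 CPM and 56.3, 53.3 and 59.1 CPM. Its fall was smaller, 1.28-fold (log2 -0.36 ± 0.07 SE, edgeR adjusted p = 0.00873). The 3 calls held under every alternative run.

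FPKM, which is per length, allows levels of different genes to be compared within a library. On that scale the summed level of BAX, BAK1 and BOK was 81.0 ± 1.25 FPKM in DMSO and 49.2 ± 1.38 FPKM in DSF/Cu (SD, n = 3). FPKM is scaled by library size and not by TMM, and scaling by total counts moved the median log2 fold change of all genes to -0.18, so these sums hold that shift as well. Shares are free of it. BOK made up 26.9 ± 1.52% of the sum in DMSO and 20.7 ± 1.36% in DSF/Cu, while BAK1 made up 36.2 ± 1.40% and 41.4 ± 2.02% and BAX 36.8 ± 1.11% and 37.97 ± 3.15%.

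**Figure D2:**
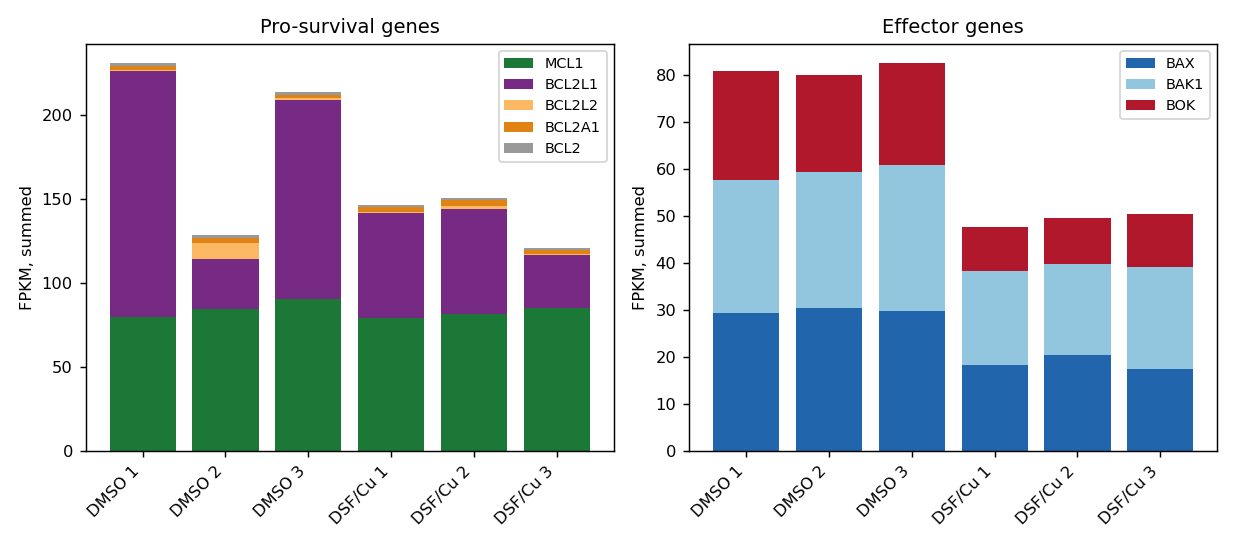
Bars show FPKM summed over the pro-survival genes (left) and over the effectors (right) in each library, with each gene as a segment. Effector sums were 80.0 to 82.4 FPKM in DMSO and 47.7 to 50.4 FPKM in DSF/Cu, and in the pro-survival panel BCL2L1 is the segment that varies most between libraries of 1 group.

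Of the 5 pro-survival genes, 1 (20%) was called, against 35.2% of all tested genes, and it fell. BCL2, the founding member, had 23.3 ± 1.07 CPM in DMSO and 17.6 ± 1.47 CPM in DSF/Cu (SD, n = 3), with no overlap. The log2 fold change was -0.40 ± 0.10 SE (edgeR adjusted p = 0.0180), and the call was lost without DMSO 2, DMSO 3, DSF/Cu 2 or DSF/Cu 3 and with the replicate block, with adjusted p up to 0.0570.

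MCL1 and BCL2L1 carried most of the pro-survival RNA by FPKM. MCL1, a short-lived protein, had 384, 412 and 438 CPM in DMSO and 440, 444 and 457 CPM in DSF/Cu. The DSF/Cu libraries lay just above the DMSO libraries, but the log2 difference of 0.12 (95% interval -0.02 to 0.26) was not called (edgeR adjusted p = 0.163), and with total-count scaling it was -0.06.

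BCL2L1 (BCL-XL) varied more within groups than between them. It had 40845, 7442 and 28920 counts in DMSO and 15008, 14823 and 6819 counts in DSF/Cu, which is 536, 111 and 438 CPM and 266, 257 and 129 CPM. DMSO 2 was below all DSF/Cu libraries, while the other DMSO libraries were above them. The log2 fold change was -0.73 ± 0.57 SE (edgeR adjusted p = 0.367), and without DMSO 2 it was -1.17 with an adjusted p of 0.0455. ABALON, an antisense RNA inside BCL2L1, had 1307 to 2118 counts in DMSO and 537 to 848 in DSF/Cu and was called lower (log2 -1.03 ± 0.26 SE, edgeR adjusted p = 0.0216). Long and short BCL2L1 transcripts, whose proteins act in opposite directions, are 1 value in a table of genes.

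BCL2L2 (BCL-W) had 182, 3001 and 232 counts in DMSO and 103, 540 and 255 counts in DSF/Cu. These are also given because of their spread: DMSO 2 stood 18.8-fold above the lowest DMSO library in CPM. The log2 fold change was -1.66 ± 1.19 SE (edgeR adjusted p = 0.332), and it was 0.85 without DMSO 2. The library low in BCL2L1 was thus the one high in BCL2L2. BCL2L2-PABPN1, a readthrough gene on the same strand, had 100 to 305 counts and shares exons with it. On the opposite strand, PPP1R3E had 104 to 367 counts and was called lower (log2 -0.93 ± 0.25 SE, edgeR adjusted p = 0.0302). HOMEZ, also on that strand, had 53 to 119 counts and was not called. BCL2A1, a target of NF-kB, had 2.09 ± 0.26 CPM and 3.12 ± 0.51 CPM (SD, n = 3), without overlap and with an edgeR adjusted p of 0.0654. Its call was gained without DSF/Cu 3, at an adjusted p of 0.0495.

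As shares of summed pro-survival FPKM, MCL1 made up 34.5%, 65.8% and 42.2% of the DMSO libraries' sums and 53.9%, 54.3% and 70.2% of those of DSF/Cu. For BCL2L1 the shares were 63.6%, 23.4% and 55.6% in DMSO libraries, and 43.0%, 41.4% and 26.1% after treatment. The shares overlapped between groups for both genes, with DMSO 2 and DSF/Cu 3 the libraries in which MCL1 led most. BCL2, BCL2L2 and BCL2A1 each made up at most 2.27% of the sum in any library, apart from BCL2L2 in DMSO 2, at 7.45%.

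**Figure D3:**
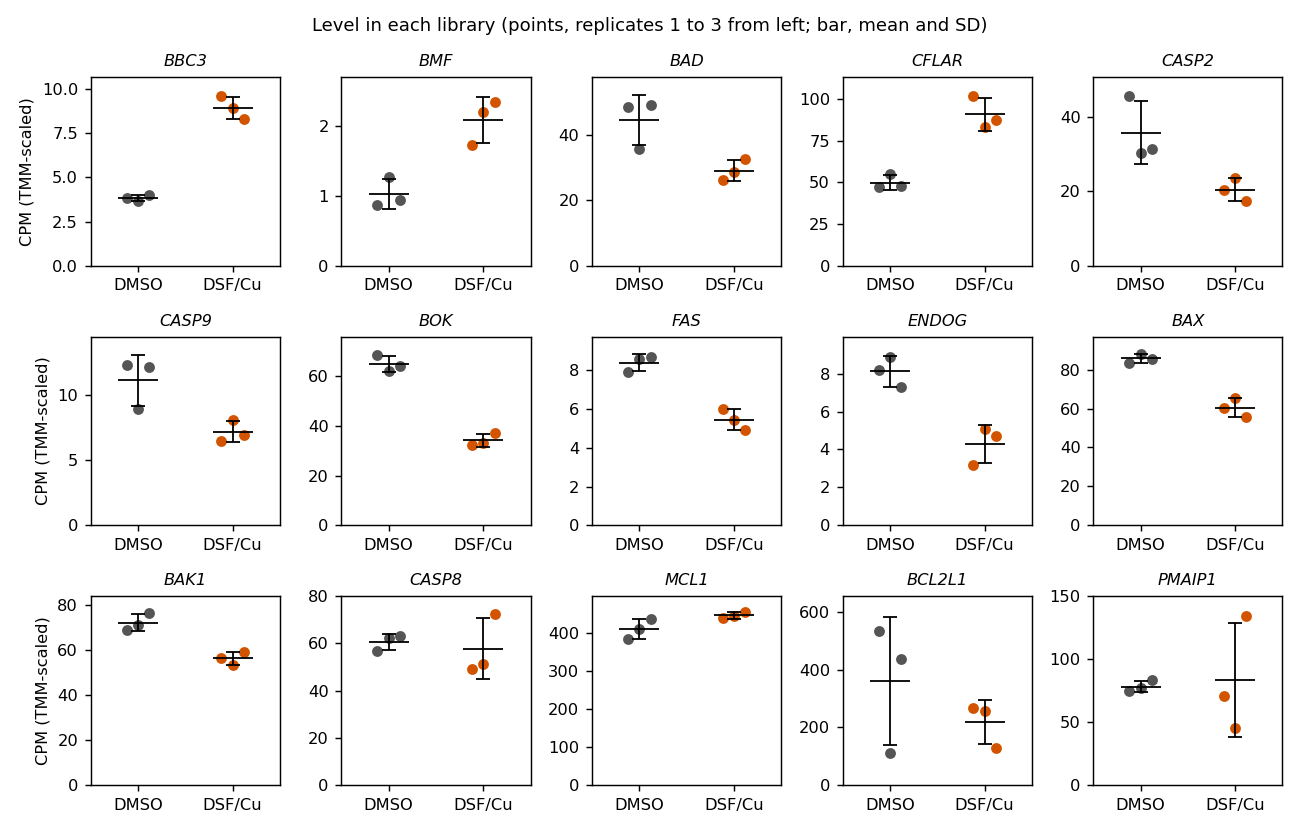
Points are TMM-scaled CPM in each library, replicates 1 to 3 from left to right within a group, and the bar is the mean with its SD; the first 14 panels follow the rule for values by library and PMAIP1 was added after its spread was seen. BBC3 lies at 3.67 to 4.01 CPM in DMSO and 8.30 to 9.57 CPM in DSF/Cu, while the points of BCL2L1, CASP8 and PMAIP1 overlap between groups.

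In the receptor route, 1 of the 7 receptors and adaptors rose (14.3%, against 18.5% of all tested genes) and 4 fell (57.1%, against 16.8%). TNFRSF10D (DcR2), a decoy that binds TRAIL without passing on a death signal, had 51.3 ± 2.53 CPM in DMSO and 68.9 ± 2.25 CPM in DSF/Cu (SD, n = 3). The rise was 1.34-fold (log2 0.43 ± 0.06 SE, edgeR adjusted p = 0.00318). TNFRSF10A (DR4), a signalling TRAIL receptor, fell from 30.6 ± 1.76 to 24.2 ± 0.80 CPM (SD, n = 3; log2 -0.34, edgeR adjusted p = 0.0160). That call was lost without DMSO 1 or DMSO 2, with adjusted p up to 0.0517. The other signalling TRAIL receptor, TNFRSF10B (DR5), had 106 ± 1.70 CPM and 115 ± 0.42 CPM (SD, n = 3). Its groups did not overlap, but the log2 difference of 0.11 was not called (edgeR adjusted p = 0.107). With total-count scaling the difference was -0.07. With DESeq2, or with a filter on a mean of at least 1 CPM, TNFRSF10B was called higher.

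FAS, the receptor for FAS ligand, had 7.90, 8.56 and 8.70 CPM in DMSO and 6.03, 5.46 and 4.90 CPM in DSF/Cu. All DSF/Cu libraries were below all DMSO libraries, a 1.54-fold fall (log2 -0.62 ± 0.13 SE, edgeR adjusted p = 0.0121). ACTA2 overlaps FAS on the opposite strand and had 53 to 146 counts, beside 259 to 602 of FAS. Its log2 fold change of -0.57 was not called (edgeR adjusted p = 0.133). As with BAD, the reads of such a neighbour cannot be told apart. The ligands themselves were scarce: FASLG and TNF did not pass the filter, and TNFSF10 (TRAIL) had 11 to 92 counts a library. They are named here outside the rule for named genes, since they are what the receptors bind.

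Of the adaptors, RIPK1, a kinase shared by survival and death complexes, fell from 76.7 ± 1.40 to 58.7 ± 1.93 CPM (SD, n = 3; log2 -0.39 ± 0.06 SE, edgeR adjusted p = 0.00271). FADD, which joins receptors to CASP8, fell from 53.0 ± 4.68 to 42.7 ± 2.32 CPM (SD, n = 3; log2 -0.31 ± 0.09 SE, edgeR adjusted p = 0.0323). FADD lost its call without any of the libraries but DMSO 3, with adjusted p up to 0.0968. TNFRSF1A, the main TNF receptor, had 74.0 ± 17.1 and 83.8 ± 6.92 CPM (SD, n = 3, edgeR adjusted p = 0.447). DMSO 1, at 93.4 CPM, was its highest library, and without it the log2 difference of 0.38 was called at an adjusted p of 0.0399.

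Among the caspases, APAF1 and CFLAR, 1 of 7 rose (14.3%, against 18.5% of all tested genes) and 3 fell (42.9%, against 16.8%). The rise was CFLAR, the CASP8-like protein without protease activity. It had 46.9, 54.9 and 47.6 CPM in DMSO and 102, 82.9 and 87.1 CPM in DSF/Cu. The groups stood well apart, and the rise was 1.82-fold (log2 0.86 ± 0.10 SE, edgeR adjusted p = 0.00132). CFLAR-AS1, on the opposite strand, was also called higher (log2 2.46 ± 0.56 SE, edgeR adjusted p = 0.0153), from 6 to 66 counts a library, few beside the 3146 to 5741 counts of CFLAR.

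CASP8, the initiator that CFLAR acts on, had 56.7, 62.4 and 63.0 CPM in DMSO and 49.2, 51.4 and 72.7 CPM in DSF/Cu. DSF/Cu 3 was above and the other treated libraries below the whole DMSO group. The log2 difference of -0.07 (95% interval -0.44 to 0.30) was not called (edgeR adjusted p = 0.764). CASP10, its close relative next to it on chromosome 2, had 7.71 ± 4.01 and 16.1 ± 3.84 CPM (SD, n = 3). DMSO 3, at 12.3 CPM, overlapped the treated range, and the log2 difference of 1.06 ± 0.37 SE had an edgeR adjusted p of 0.0695. CASP10 was called without DMSO 3 (adjusted p = 0.00818) and with the replicate block.

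CASP2, an initiator activated by the PIDDosome, had 45.6, 30.3 and 31.5 CPM in DMSO and 20.3, 23.6 and 17.4 CPM in DSF/Cu. DMSO 1 was high in its group, and all DMSO libraries were above all DSF/Cu libraries. The fall was 1.75-fold (log2 -0.81 ± 0.19 SE, edgeR adjusted p = 0.0180), not called without DSF/Cu 1 or DSF/Cu 3, with adjusted p up to 0.0579.

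CASP9, the initiator of the apoptosome, had 12.3, 8.86 and 12.1 CPM in DMSO and 6.47, 8.05 and 6.94 CPM in DSF/Cu. DMSO 2 came close to the treated range. The fall was 1.55-fold (log2 -0.63 ± 0.17 SE, edgeR adjusted p = 0.0291). It was not called without DMSO 1, DMSO 3, DSF/Cu 1 or DSF/Cu 3 or with the replicate block, with adjusted p up to 0.0889. APAF1, the scaffold that CASP9 joins, had 16.0 ± 1.75 and 16.7 ± 3.66 CPM (SD, n = 3, edgeR adjusted p = 0.820). CASP6, an executioner, went from 22.8 ± 1.09 to 17.8 ± 2.10 CPM (SD, n = 3; log2 -0.36, edgeR adjusted p = 0.0448). That call was lost when any library but DSF/Cu 2 was left out, with RLE size factors and without a filter, with adjusted p up to 0.123.

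By edgeR 0 of the 3 IAPs were called, against 35.2% of all tested genes. By edgeR 0 of them had an unadjusted p under 0.05, while DESeq2 called BIRC2 higher. XIAP, the direct caspase inhibitor, had 5.15 ± 0.90 and 6.14 ± 1.06 CPM (SD, n = 3, edgeR adjusted p = 0.379). BIRC2 (cIAP1), a ubiquitin ligase that acts on RIPK1, had 159 ± 17.0 and 204 ± 45.3 CPM (SD, n = 3, edgeR adjusted p = 0.153). DSF/Cu 3, at 153 CPM, lay inside the DMSO range, and without it the log2 difference of 0.54 was called (adjusted p = 0.0167). BIRC3 (cIAP2), its paralog, had 238 ± 3.97 and 203 ± 31.5 CPM (SD, n = 3, edgeR adjusted p = 0.161), with no overlap. With total-count scaling BIRC3 was called lower, at an adjusted p of 0.0368.

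Of the 5 mitochondrial proteins, 2 fell (40%, against 16.8% of all tested genes) and 3 were not called. ENDOG, a mitochondrial nuclease, had 8.20, 8.88 and 7.28 CPM in DMSO and 3.16, 5.06 and 4.69 CPM in DSF/Cu. The groups did not overlap, and the fall was 1.89-fold (log2 -0.92 ± 0.21 SE, edgeR adjusted p = 0.0149). Without DMSO 2 its adjusted p was 0.0516. SPOUT1 overlaps ENDOG on the opposite strand and had 2022 to 3545 counts, beside 178 to 625 of ENDOG. Its log2 fold change was -0.25. AL441992, on the same strand as SPOUT1, had 35 to 224 counts and a log2 fold change of -1.46. As with BAD, the reads of such neighbours cannot be told apart. AIFM1, a flavoprotein that can move to the nucleus, fell from 48.8 ± 2.04 to 40.4 ± 2.32 CPM (SD, n = 3; log2 -0.27, edgeR adjusted p = 0.0270). Its call was lost without DMSO 1, DMSO 3, DSF/Cu 1 or DSF/Cu 3 and with the replicate block, with adjusted p up to 0.0854.

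CYCS (cytochrome c) had a level per length near that of MCL1 in DMSO, 87.1 against 84.9 FPKM. Its level by CPM was 431 ± 31.3 and 466 ± 18.2 CPM (SD, n = 3, edgeR adjusted p = 0.232). Its 12 pseudogenes with counts held at most 0.750% of the CYCS count in any library. DIABLO had 75.7 ± 13.5 and 98.2 ± 12.5 CPM (SD, n = 3, edgeR adjusted p = 0.108). AC048338, which overlaps DIABLO on the same strand, had 0 counts in all DMSO libraries and 228, 655 and 29 in DSF/Cu. The table has a second row named DIABLO with 1 to 21 counts, which was not used. HTRA2, a serine protease, had 32.3 ± 1.86 and 37.3 ± 1.12 CPM (SD, n = 3, edgeR adjusted p = 0.0686), with no overlap between groups. AUP1 lies across HTRA2 on the opposite strand and had 6044 to 9391 counts, beside 1934 to 2327 of HTRA2. Its log2 fold change was 0.01.

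**Figure D4:**
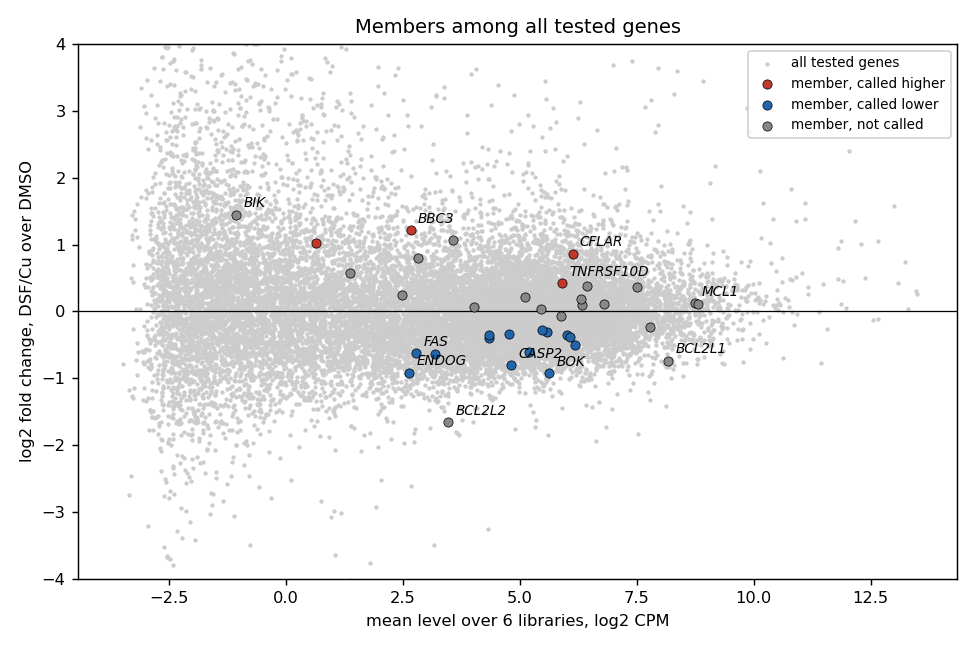
Each point is a gene, with its mean level over the libraries (log2 CPM) across and its log2 fold change up; members are in colour and all tested genes in grey, with 375 genes beyond the vertical limits. The called members lie between -0.93 (BOK) and 1.22 (BBC3) on the vertical axis.

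From a list of 36 other genes of apoptosis and necroptosis, 28 passed the filter, and 8 rose (28.6%, against 18.5% of all tested genes) and 6 fell (21.4%, against 16.8%). The list was chosen with earlier results of these data known, so these shares describe the list only. CASP4, an inflammatory caspase, rose from 90.7 ± 4.65 to 216 ± 13.1 CPM (SD, n = 3; log2 1.25 ± 0.07 SE). CYLD, a deubiquitinase that acts on RIPK1 complexes, rose from 24.7 ± 1.59 to 69.1 ± 6.35 CPM (SD, n = 3; log2 1.48 ± 0.09 SE). BNIP3L, a mitophagy receptor, rose by log2 1.34 ± 0.07 SE and MOAP1, a BAX-binding protein, by 0.58 ± 0.07 SE. PARP1, a caspase substrate, and MLKL, which forms the pore of necroptosis, fell, with log2 fold changes of -0.48 ± 0.05 SE and -0.49 ± 0.07 SE. The 6 calls named here held under every alternative run.

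From a list of 18 transcription factors known to act on such genes, 17 passed the filter, 12 rose (70.6%) and 1 fell (5.88%), beside the same 18.5% and 16.8% of all genes. This list too was chosen with earlier results of these data known, so its shares describe the list only. FOS and JUN, partners in AP-1, rose from 2.20 ± 0.58 to 147 ± 18.1 CPM and from 111 ± 1.38 to 409 ± 30.4 CPM (SD, n = 3; edgeR adjusted p = 3.15e-05 and 2.05e-05). ATF3 rose by log2 3.39 ± 0.19 SE, CEBPB by 1.51 ± 0.05 SE, ATF4 by 0.55 ± 0.05 SE and FOXO3 by 0.68 ± 0.08 SE. TP63 rose by log2 3.80 ± 0.40 SE from 8 to 23 counts a library in DMSO. E2F1, a cell cycle factor, fell, with a log2 fold change of -0.54 ± 0.06 SE. Whether any of them acted on the members was not tested.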

How the data were processed

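Poly(A) RNA from 3 DMSO and 3 DSF/Cu libraries was sequenced as paired ends. The deposited table gives, per the file headers, a whole-number count per gene without scaling and an FPKM value. The submitters' processing notes list HISAT2 2.0, StringTie 1.3.0 and Bowtie 0.12.2 with no roles, and a mouse build although all 38 member IDs are human IDs of GENCODE 29. Only 23 of the 38 have the same coordinates in GENCODE 29 as in the deposited table. Which counter, strand setting and annotation were used is not given in the sources used here. Columns headed Control were taken as DMSO.

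Genes passing filterByExpr (18229) were fitted with edgeR 4.0.16 (TMM, quasi-likelihood F test, two-sided, R 4.3.3). Benjamini-Hochberg adjusted p under 0.05 over all of them made a call. Levels are TMM-scaled CPM. A chi-square per degree of freedom of 51.3 to 65.1 between libraries of a group showed no copies. Alternatives were total-count and RLE scaling, DESeq2 1.42.0, 2 filters, the replicate block and leaving out each library.

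Members and lists were chosen with earlier results of these data known. All members are named. Values by library are given for called members of at least 1.5-fold and for MCL1, BCL2L1, BAX, BAK1 and CASP8, and up to 8 called genes of each other list are named, less a few not reported here. Exceptions are said to be so. Overlapping genes were listed from 120 total counts, a minimum set after the values were seen. The steps were tested on simulated counts, whose dispersion was changed once after a first run had recovered fewer of the changed genes. Many changed genes were still missed after that, so a member that was not called may have changed. Which dispersion is nearer to that of these libraries was not tested.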

Additional observations from a re-analysis of the deposited data

How the results depend on the processing

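Of the 18 called members, 8 (BBC3, BAX, BAK1, BOK, TNFRSF10D, FAS, RIPK1 and CFLAR) held their call under all 12 alternatives. Of the 19 members without a call, 11 gained one in at least 1 alternative, and 385 of 443 comparisons of a gene under an alternative kept the call. DESeq2 called 12 members higher in place of 4, which is 32.4% against 23.9% of all genes, in place of 10.8% against 18.5%. The 8 added were BCL2L11, BIK, BCL2A1, TNFRSF10B, CASP10, BIRC2, DIABLO and HTRA2. Members called lower numbered 8 to 11 when a library was left out, in place of 14, in fits with fewer samples. Scaling by total counts called 4856 genes lower in place of 3059, with rises 32.7% of calls in place of 52.4%, and moved the median of all genes to -0.18.

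With the replicate block, 6 members were called higher and 11 lower, and 2692 and 2451 of all genes. Same-numbered libraries correlated in their deviations at 0.029, 0.045 and 0.065, and differently numbered ones at -0.075 to 0.030. Each DMSO library correlated most with the DSF/Cu library of its number. All values were small, and the numbers were not taken to pair the libraries. HRK, BIK and BMF had at most 127 counts in any library, which limits the precision of their values.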

Other observations

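DSF/Cu 3 was the library farthest from its group mean for 17 of the 37 tested members (45.9%, against 32.8% of all tested genes), and DMSO 2 for 16 (43.2%, against 30.4%). This measure was chosen after the values were seen. Among genes with a mean of at least 1 CPM, 3 of 36 members in DMSO and 4 of 36 in DSF/Cu had a range of over 2-fold within the group, beside 8.25% and 8.82% of all such genes. In DMSO these were BCL2L1, BCL2L2 and CASP10. In DSF/Cu they were PMAIP1, BCL2L11, BCL2L1 and BCL2L2.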
